A study of Mus musculus with 6 samples.

Results

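Long intergenic noncoding RNA (lincRNA) genes were examined in AML12, a cultured line of mouse hepatocytes. Of 54532 genes in the deposited table, 5559 carried the biotype lincRNA, and the 864 described here were selected on their summed counts, at least 10 over the 6 libraries. Left out by name were the very abundant nuclear transcripts Malat1 and Neat1 and genes whose names start with Snhg, hosts of small nucleolar RNAs, in all 6 genes at this depth. The study took 3 libraries from cells labelled PA/OA, the modelling reagent, given in the labels as 400 nM and 800 nM, and 3 from cells labelled PP at 250 µg/ml, each after 24 h. All cells were labelled wild type, and both groups came from this 1 line. The labels name PP alone for its group, and the design text does not settle whether PA/OA was given along with it; the untreated group was not analysed here. The series title concerns peptides of Camellia oleifera meal and lipid metabolism. No label ties the libraries to separate cultures, so p-values measure only how these libraries spread, which may be technical.

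Transcripts of this class are made by RNA polymerase II, usually capped and often spliced, and do not code for a known protein. Many are kept in the nucleus, where the nuclear exosome degrades a large part of them soon after synthesis, and they are on average less abundant and less stable than mRNAs. A few act in the cytoplasm: Norad binds Pumilio proteins, which shorten the life of their target mRNAs, and Cyrano binds the microRNA miR-7 and triggers its decay. Others are precursors from which microRNAs are cut.

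The sequences below belong to members with values further on, and are from GENCODE M21 transcripts (Norad, Cyrano) and RefSeq (microRNAs), build GRCm38. Norad (2900097C17Rik) held 11 Pumilio elements, TGTANATA on the transcript's strand, in its 4915 bases, or 2.24 per kb, against 0.129 per kb over the transcripts of 452 tested members, none of which had more. A stretch of 180 bases, chr2:156391293-156391472 on the minus strand, is shown with 2 of them in capitals. The Cyrano (1700020I14Rik) site for miR-7, chr2:119602136-119602161 on the plus strand, is shown with the match to the microRNA's seed (its bases 2 to 8) in capitals. With 2 bases left unpaired, 22 of the 23 bases of miR-7a-5p could pair there.
Norad: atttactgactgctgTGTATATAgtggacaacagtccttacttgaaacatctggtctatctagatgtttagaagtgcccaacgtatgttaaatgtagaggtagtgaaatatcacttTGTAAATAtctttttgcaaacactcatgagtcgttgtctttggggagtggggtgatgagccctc
Cyrano: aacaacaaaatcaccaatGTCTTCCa
miR-7a-5p: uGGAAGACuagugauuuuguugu

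Mir17hg, the host of the miR-17 to miR-92 cluster, holds 11 mature microRNAs with 9 distinct seeds, of which 6 with 4 seeds are shown, 1 arm of each hairpin, with the seed in capitals. miR-17-5p and miR-20a-5p share one, miR-19a-3p and miR-19b-3p share another, and those of miR-18a-5p and miR-92a-3p each stand alone. Other hosts among the members are A430106G13Rik (miR-181b-5p), 4833445I07Rik (miR-191-5p and miR-425-5p), AL805899.1 (miR-31-5p) and 6720427I07Rik (let-7d-5p), and the arms shown share no seed with those of the cluster or with each other.
miR-17-5p: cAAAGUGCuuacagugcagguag
miR-20a-5p: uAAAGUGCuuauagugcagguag
miR-19a-3p: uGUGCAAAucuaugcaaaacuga
miR-19b-3p: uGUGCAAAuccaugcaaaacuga
miR-18a-5p: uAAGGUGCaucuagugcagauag
miR-92a-3p: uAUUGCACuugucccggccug
miR-181b-5p: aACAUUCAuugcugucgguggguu
miR-191-5p: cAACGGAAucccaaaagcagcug
miR-425-5p: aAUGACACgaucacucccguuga
miR-31-5p: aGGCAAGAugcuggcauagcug
let-7d-5p: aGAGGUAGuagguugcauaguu

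Total counts per library ran from 24113169 to 32560589. The hepatocyte markers Alb, Ttr and Apoa1 were low in this line (12.2, 1.45 and 2.04 CPM, counts scaled to library size with TMM factors, in PA/OA, and 9.9, 0.765 and 2.73 in PP), while the keratin genes Krt8 and Krt18 made up most of the summed level of the list of 8, which summed to 3010 to 3220 CPM in PA/OA and 3720 to 4070 in PP. By the test described below, 3 of that list were lower in PP, Apob (from 246 to 75.8 CPM), Hnf4a (from 71.7 to 26.8 CPM) and Alb. Higher in PP were 2, Krt8 (from 1780 to 1990 CPM) and Krt18 (from 975 to 1730 CPM), and 3 did not pass. The 4 cholangiocyte markers summed to 2340 to 2470 and 3830 to 4250 CPM, with Krt19, Krt7 and Sox9 higher in PP and Epcam without a count. The macrophage, endothelial and stellate lists of 4 genes each summed to at most 2 CPM in any library, and Adgre1 and Clec4f had no count. The part of these differences in the lincRNA results was not tested. In bulk RNA, fewer cells with a transcript and less of it per cell cannot be told apart.

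Membership was set by summed counts. In all, 31 lincRNA genes stood at exactly 10 counts, together 223 in PA/OA and 87 in PP, and 30 stood at 9, together 202 and 68. Another 3858 had no count and 831 had 1 to 9. Of the 864 members, 818, 809 and 809 had a count in PA/OA replicates 1 to 3, and 632, 620 and 644 in PP replicates 1 to 3. No PP library reached the lowest PA/OA library, although the PP libraries had the larger totals. The same held over all genes in the table. Of these, 23329, 23023 and 22800 had a count in PA/OA replicates 1 to 3, and 19555, 19686 and 19779 in PP replicates 1 to 3. Over the 3 libraries of a group, 97 members had no count in PP and 8 had none in PA/OA. A filter on low counts left 453 members for testing, the least abundant with 32 counts in all. Of the 411 that were not tested, 323 had more counts in PA/OA and 81 more in PP, with a median sum of 21. A member could pass this filter through its higher group alone, so the tested members do not stand for all 864.

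Most lincRNA genes that could be tested were less abundant in PP, and a smaller number were more abundant. In the quasi-likelihood test of edgeR, after Benjamini-Hochberg adjustment over all 15718 genes tested and a threshold of 0.05, 254 of 453 members (56.1%) were lower in PP, against 39.9% of all genes. Higher in PP were 66 (14.6%), against 35.1% of all genes, and 133 did not pass. At least 2-fold lower were 232 members (24.5% of all genes were called and lower by as much), and at least 2-fold higher 42 (12.1% of all genes). At least 4-fold lower were 146 members (12.9% of all genes were called and lower by as much) and at least 16-fold lower 38 (3.56% of all genes), while 12 were at least 4-fold higher (1.95% of all genes). The CPM of the groups did not overlap for 269 tested members lower in PP (41.4% of all genes) and 69 higher in PP (36.1% of all genes); 249 of the 254 falls and 61 of the 66 rises were among them. The median log2 fold change, PP minus PA/OA throughout, was -1.12 with quartiles of -2.43 and 0.08, against -0.09 over all genes and 0.04 over protein-coding genes.

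How many members fell on each side varied with the scaling. Fold changes here use TMM scaling (edgeR's trimmed mean of M-values). Under library size alone, the all-gene median moved from -0.09 to -0.52 and that of the members to -1.55, and with upper-quartile scaling to -0.32 and -1.35. The difference of the members from all genes was -1.03 with each of these scalings. Each scaling moves all genes of a library alike, so this difference could hardly change. Called higher were 41 members and lower 303 under library size alone, and 53 and 280 under upper-quartile scaling. These 41 and 53 were all among the 66, which a common downward shift of all genes makes likely. When each library's trend of fold change with abundance, fitted over all genes tested, was removed, 118 members were called higher and 157 lower. The median was then -0.26, a difference of -0.27 from all genes, and rises made up 42.9% of the calls in place of 20.6%.

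Abundance went with the direction. Average abundance, in log2 CPM over the 6 libraries, was below 0 for 188 members, of which 4.79% were higher in PP and 54.8% lower. From 0 to 2, 13.4% of 179 members were higher, from 2 to 4, 37.5% of 56, and at 4 and above, 40% of 30. The share lower was 59.8%, 50% and 53.3% in these 3 classes, so it changed little while the share that did not pass shrank. All genes tested had 6.65%, 15.6%, 26.3% and 54.9% higher in the same classes, and 53.4%, 49.8%, 48.3% and 28.9% lower. At 4 and above, protein-coding genes had 54.8% higher and 29% lower, the opposite balance to the members. In the classes below 4, from the lowest up, protein-coding genes had 9.21%, 14.9% and 23.9% higher and 48.2%, 48.7% and 50.7% lower. Differences between members and protein-coding genes were not tested. Spearman's rank correlation between fold change and average abundance was 0.28 across the 453 members and 0.46 across all 15718 genes, both as descriptions, since genes of the same libraries are not independent and both measures come from the same counts.

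**Figure D1:**
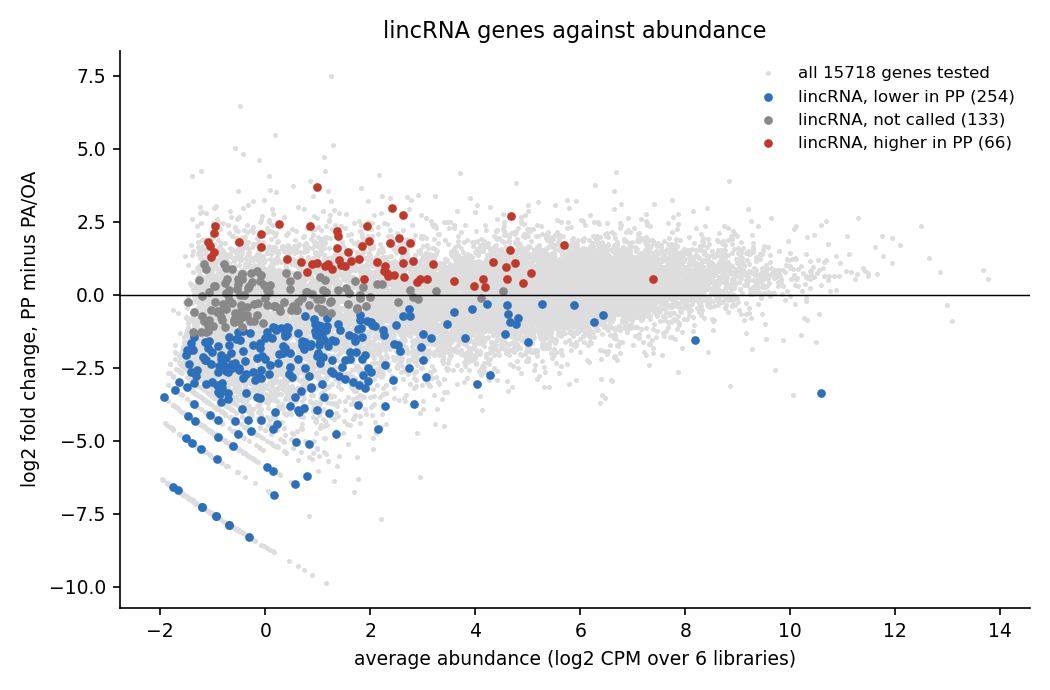
Log2 fold change (PP minus PA/OA) against average abundance in log2 CPM; grey points are all 15718 genes tested, coloured points the 453 lincRNA genes by edgeR call. The 66 lincRNA genes called higher lie mostly to the right, with a median abundance of 2.05 against 0.44 for the 254 called lower, and rows of points at the lower left are genes with few or no counts in PP.

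Gene length, the summed exon bases as the table gives them, went less with direction. Of 106 members below 1000 bases, 17% were higher and 46.2% lower; of 117 from 1000 to 2000 bases, 14.5% and 50.4%; of 163 from 2000 to 4000 bases, 11.7% and 64.4%; and of 67 at 4000 and above, 17.9% and 61.2%. All genes tested had 26.1%, 29.5%, 32% and 41.3% higher in the same classes, and 32.7%, 39.7%, 45% and 38.5% lower. Median lengths were 1954.5 bases for members called higher, 2309.5 for those lower and 1603 for those not past the test. Across members, the rank correlation between fold change and length was -0.06 (0.09 over all genes), and that between abundance and length 0.3, so longer genes also carried more counts. Within the members of abundance 0 and above, the 110 below 2000 bases had a median of -0.53 with 26.4% higher, and the 155 longer ones a median of -1.05 with 18.1% higher. Below 0 the medians were -1.28 for 113 shorter and -2.1 for 75 longer members. Single-exon members (54) were higher in 20.4% and lower in 53.7%, those with 2 exons (186) in 12.4% and 52.2%, and those with 3 or more (212) in 14.6% and 60.4%.

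**Figure D2:**
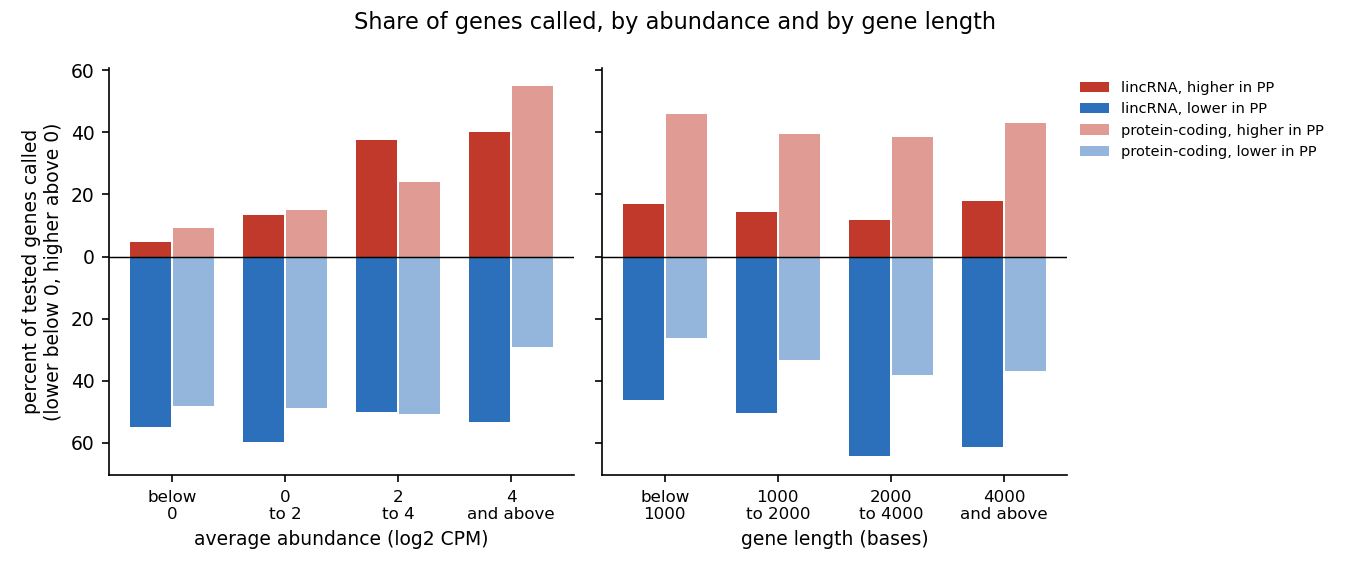
Percent of tested genes called higher (red, above 0) and lower (blue, below 0) in PP, by class of average abundance (left) and of gene length (right); dark bars are lincRNA genes and pale bars protein-coding genes. The red bars of lincRNA genes grow from 4.79% to 40% with abundance and stay between 11.7% and 17.9% over the length classes.

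Members took 0.621% ± 0.0465 of the counts of PA/OA libraries and 0.182% ± 0.0072 of those of PP libraries (SD, n = 3 each), a ratio of 3.41. Much of this was 1 gene, Gm26917 on chromosome 17 (39843013 to 39846341, plus strand), which held 49.3% to 56.5% of the members' counts in PA/OA and 9.34% to 17.6% in PP. Without it the shares were 0.297% ± 0.00494 and 0.159% ± 0.00264, a ratio of 1.87, a version chosen after seeing the data. RefSeq places an 18S rRNA pseudogene, Rn18s-rs5 (39846354 to 39848202), 12 bases past its end, and whether rRNA was removed or mRNA was drawn by its poly(A) tail is not given in any source used here. Gm26917 had 2620, 2490 and 3270 CPM in the PA/OA libraries and 231, 393 and 190 in PP and changed on the log2 scale by -3.36 ± 0.17 (SE; adjusted p = 8.03e-14, edgeR). The groups lay far apart, and PP replicate 2 stood above the other PP libraries.

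Per kb of exon, Gm26917 was the most abundant member in PA/OA at 840 CPM per kb, followed by Lncenc1 at 131 and Epb41l4aos at 57.7. In PP, Epb41l4aos led at 96.9 CPM per kb, ahead of Gm10076 at 95.2, Gm26917 at 81.5, Lncenc1 at 44.9 and Norad at 40.4. The order of the leading transcripts was thus not the same in the groups. Gm10076 shares 84.2% of its 31-base words with other genes, foremost the ribosomal protein gene Rpl41, so its level is uncertain.

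The rises came first by size. Of the 66, 60 reached a mean of 1 CPM in PP and 17 reached 10 CPM, and their log2 fold changes ran from 0.26 to 3.69 with 41 called higher under library size only, upper-quartile scaling and trend removal alike. The largest was that of Gm12976 (chromosome 4, 129261965 to 129265010), which went from 0.128, 0.166 and 0.572 to 4.29, 2.82 and 3.97 CPM and changed on the log2 scale by 3.69 ± 0.42 (adjusted p = 5.98e-08, edgeR), or 4.61 without PA/OA replicate 3. Its groups were well apart, and PA/OA replicate 3 was the highest of its group. It starts 561 bases from C77080, on the opposite strand and pointing away, and that coding gene rose by 2.17 from 176 to 791 CPM.

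Gm17275 (chromosome 1, 180802568 to 180809483) was the most abundant of the large risers, at 7.62, 6.39 and 6.54 CPM in PA/OA and 44.1, 46.3 and 43.2 in PP and changed on the log2 scale by 2.70 ± 0.10 (adjusted p = 5.22e-16, edgeR). Its libraries hardly differed within a group. It shares exon bases with H3f3a, the gene of histone variant H3.3, which rose by only 0.27, from 70.2 to 84.4 CPM. AC163032.1 (chromosome 12, 118231595 to 118234564) had 1.85, 1.50 and 1.54 CPM in PA/OA and 10.9, 10 and 11.5 in PP (2.73 ± 0.18; adjusted p = 1.11e-11, edgeR). It lies 369 bases past the end of Sp4, a zinc finger transcription factor gene on the same strand, which rose by 1.53. Gm26819 rose by 2.97 from 1.63, 0.999 and 1.00 to 9.09, 10.1 and 9.42 CPM. It overlaps Med10, a Mediator subunit gene that had 0 counts in all libraries, and 81% of its 31-base words occur in other genes, foremost Med10, so its counts cannot be told apart from those of that gene.

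Other large rises had low levels in PA/OA. Gm19705 (chromosome 1) rose 2.33 from 1.15, 1.13 and 1.54 to 6.35, 6.91 and 5.97 CPM, Gm39380 (chromosome 9) 2.19 from 0.701, 0.799 and 1.29 to 3.53, 4.92 and 4.18, and Gm47507 (chromosome 13) 2.36 from 0.510, 0.832 and 0.393 to 2.65, 3.33 and 2.98. No other gene's exons touch these, and in each the lowest PP library was above the highest PA/OA library. Gm46404, with 1 exon, rose by 1.92 from 1.37, 3.73 and 2.32 to 11.0, 8.72 and 8.48 CPM, with a wide spread in PA/OA. 5830454E08Rik, 2677 bases past Rpl14 on its strand, rose by 2.40, and Gm43661, near Vps37b, by 2.02. Gm36839 rose by 2.36, Gm37387 by 2.06 and Gm26799 by 1.82, all under 2 CPM in every library. A330069E16Rik, which starts 164 bases from the DNA damage gene Ddb2 and points away from it, rose by 1.82 from 1.43, 2.36 and 1.43 to 6.48, 6.84 and 5.20 CPM while Ddb2 fell by 0.34.

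**Figure D3:**
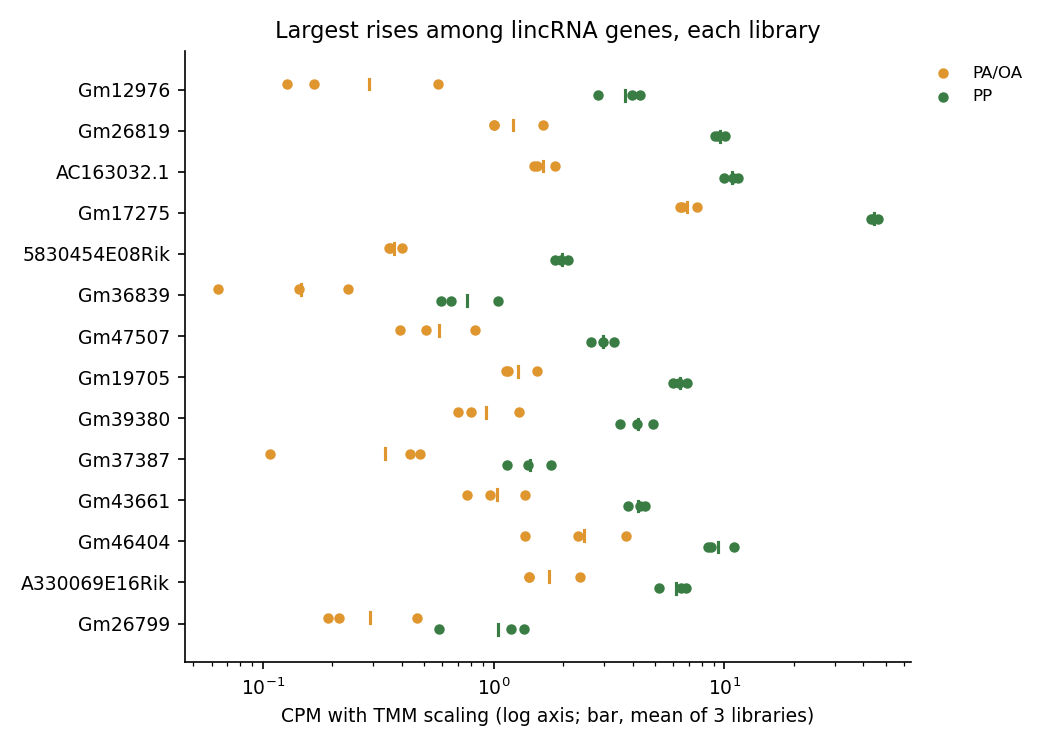
CPM in each of the 3 PA/OA (orange) and 3 PP (green) libraries, on a log axis, for the 14 lincRNA genes with the largest rises among those with groups apart and an average log2 CPM of at least -1; bars mark group means. In all 14 rows the green points lie to the right of the orange ones, from Gm12976 (3.69) to Gm26799 (1.82, log2).

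Among the abundant members, 3 of the 10 with most CPM rose, where 54.9% of all genes with an average log2 CPM of 4 and above were higher. Gm26809 (chromosome 6, 18844220 to 18847360) had 26.0, 25.2 and 21.9 CPM in PA/OA and 83.8, 80.5 and 73.1 in PP (1.70 ± 0.08; adjusted p = 2.81e-14, edgeR), with exon bases shared with Gm20186. Epb41l4aos (chromosome 18, 33794892 to 33795986), a short transcript 341 bases from Epb41l4a on the other strand, had 23.7, 21.6 and 29.1 and then 43.0, 40.4 and 41.6 CPM (0.75 ± 0.10; adjusted p = 3.45e-07, edgeR), while Epb41l4a itself fell by 1.52 from 47.2 to 16.5 CPM. A small RNA gene, Gm23639, lies within Epb41l4aos.

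Norad, the Pumilio decoy whose elements are printed above, had 136, 137 and 140 CPM in PA/OA and 203, 189 and 203 in PP and changed on the log2 scale by 0.52 ± 0.05 (adjusted p = 1.34e-08, edgeR). The groups were apart, but the rise did not pass under library size alone (0.09, adjusted p = 0.148, edgeR) or with the trend with abundance removed (adjusted p = 0.138, edgeR). Of its 31-base words, 44.7% also occur in other genes, foremost Gm7292. Meg3, an imprinted maternally expressed RNA, rose by 0.89 ± 0.28 (adjusted p = 0.0069, edgeR) from 1.28, 2.06 and 1.68 to 3.79, 2.28 and 3.27 CPM, and did not pass under library size alone (0.46, adjusted p = 0.143, edgeR). The nearest coding gene, Rtl1 of the same imprinted cluster, rose by 3.52 from 0.179 to 2.10 CPM.

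Several risers, chosen after their values were seen, lie at coding genes that rose too. Gdap10 within Nampt, the gene of an NAD synthesis enzyme, had 12.5, 13.9 and 12.3 CPM in PA/OA and 30.5, 26.8 and 26.2 in PP (1.11), and Nampt rose by 2.09. Lockd, 3579 bases past the cell cycle inhibitor gene Cdkn1b on its strand, rose by 1.08 and Cdkn1b by 2.14 from 79.6 to 351 CPM. Gm26724, over Lemd2, rose by 1.54 and Lemd2 by 1.31, and Gm4262, over Litaf, rose by 1.66 and Litaf by 1.14. Wincr1, a Wnt-induced RNA, rose by 1.77 from 1.53, 3.73 and 1.79 to 7.91, 7.78 and 8.41 CPM, although the nearest coding gene Mtap, 52508 bases away, fell by 0.51.

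Over all tested members, 232 had a tested coding gene within 5000 bases. Of the 35 of these called higher, 27 (77.1%) had a neighbour called higher, and of the 127 called lower, 48 (37.8%) had one. Of all 232, 115 (49.6%) had one. Of all tested protein-coding genes, the class of the neighbours, 41.3% were higher, and of all genes 35.1%. Spearman's rank correlation between the fold changes of member and neighbour was 0.31 over the 232 and -0.01 over 44 members whose nearest coding gene was over 50000 bases away, as descriptions. Of 864 members, 400 share bases with another gene, and of the 66 risers 29 do, 21 of them exon bases. The strand setting of the counting is not given in any source used here, so reads of an overlapped gene may be counted for the member. The part of shared reads in the neighbour values was not tested. Members over no other gene had 37 of 217 (17.1%) higher and 117 (53.9%) lower with a median of -1.05.

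**Figure D4:**
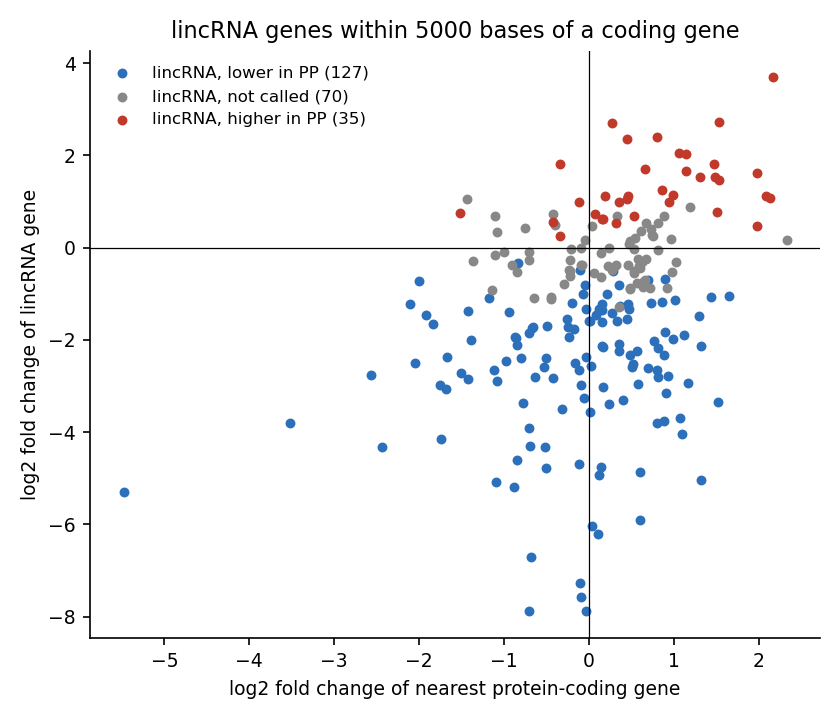
Log2 fold change of 232 lincRNA genes against that of their nearest protein-coding gene within 5000 bases, coloured by the lincRNA call. Most red points (lincRNA higher in PP) lie to the right of 0, 27 of 35 with a neighbour called higher, while blue points lie on both sides.

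The falls included members that were nearly lost from PP. Of tested members, 9 had no count in PP, and 28 had 3 or fewer over its 3 libraries. The 9 could pass the filter on low counts only through PA/OA, and no tested member was without a count in PA/OA. Called and at least 16-fold lower were 8.39% of tested members and 3.56% of all genes. Gm27019 (chromosome 6, 31063092 to 31063495, minus strand), which overlaps Mir29b-1, had 125 counts in PA/OA and 0 in PP. By share of total counts this was at least 49.7-fold lower, taking 3 counts over the group as the floor (exact 95% lower limit of the ratio 39.8). Gm43913 and Gm15907 had 93 counts each in PA/OA and 0 in PP, at least 37-fold lower (29.5), and Gm8579 and Gm39384 had 76 and 0, at least 30.2-fold lower (24); of the 31-base words of Gm8579, 56.2% occur in other genes. Gm11766 went from 280 to 3 counts (ratio of library shares 111, exact 95% interval 37.7 to 543), Gm47430 from 240 to 2 (143, 39.2 to 1190) and A430106G13Rik from 177 to 1 (211, 37.4 to 8380). The remaining counts of these last genes lay in PP replicate 1, and their fitted log2 fold changes of -6.20, -6.48 and -6.85 were -9.49, -9.27 and -8.83 without it; for Gm11766 the value was -5.61 without PP replicate 2 or 3. All these ratios, floors and limits compare shares of total counts without TMM factors, and with those factors they would be smaller. Intervals and floors cover counting error only.

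Hosts of microRNAs were mostly lower, as were the tested members as a whole (56.1% lower and 14.6% higher). Of 15 members that hold a mature microRNA on their strand, 10 were tested. Of these, 7 were lower (39.9% of all genes) and 2 higher (35.1% of all genes), Meg3 and 2900076A07Rik (by 0.52). Mir155hg did not pass the test. With 10 tested, these counts rest on few genes. Mir17hg (chromosome 14, 115042879 to 115046727), whose microRNAs promote cell proliferation, had 14.2, 13.2 and 10.9 CPM in PA/OA and 1.22, 0.543 and 1.09 in PP and changed on the log2 scale by -3.76 ± 0.23 (adjusted p = 1.69e-12, edgeR). No PP library came near the PA/OA range. AL805899.1, host of miR-31, went from 8.64, 7.49 and 8.07 to 2.82, 1.81 and 2.95 CPM (-1.68), and 6720427I07Rik, host of let-7d, from 4.40, 5.49 and 4.25 to 1.30, 1.38 and 2.00 (-1.59).

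The host of miR-191 and miR-425, 4833445I07Rik, had 0.446, 0.366 and 0.572 CPM in PA/OA and no count in PP, and A430106G13Rik of miR-181b was described above. A230057D06Rik, which spans microRNAs of the miR-344 family, fell by 1.97. Ftx, a noncoding gene of the X-inactivation centre with miR-374b and miR-421, fell by 1.78 ± 0.17 from 10.9, 12.8 and 12 to 3.74, 2.68 and 3.93 CPM. Mir155hg, host of the inflammation-linked miR-155, had 0.670, 0.433 and 0.893 CPM in PA/OA and 1.26, 0.579 and 0.146 in PP, with overlapping groups (-0.03, adjusted p = 0.967, edgeR) and -0.84 without PP replicate 1. Levels of mature microRNAs were not analysed here, so these values speak of host transcripts alone.

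The list of lincRNA genes with a described role held 18 members, of which 15 were tested and 3 were not. Of the 15, 9 were lower, 3 higher (Norad, Epb41l4aos and Meg3) and 3 did not pass. Of all tested members 56.1% were lower and 14.6% higher, and of all genes 39.9% and 35.1%. Trp53cor1, known as lincRNA-p21 and induced by p53, went from 6.76, 4.93 and 6.32 to 0.295, 0.651 and 0.327 CPM (-3.79 ± 0.30; adjusted p = 1.95e-10, edgeR), while Cdkn1a, 11797 bases away, rose by 1.75 from 132 to 446 CPM. The member and the neighbouring cell cycle inhibitor gene thus moved in opposite directions. Of the 31-base words of Trp53cor1, 41% also occur in other genes, foremost AC167363.1, a member called lower too. Lncpint, another p53-induced RNA, went from 30.6, 26.7 and 29.0 to 4.46, 3.55 and 2.51 CPM (-3.05 ± 0.15; adjusted p = 4.96e-14, edgeR). Jpx, an activator of Xist, fell by 2.63 from 3.89, 4.23 and 3.50 to 0.673, 0.724 and 0.473 CPM. Mirt1, named after myocardial infarction, had 35.4, 34.0 and 39.7 CPM in PA/OA and 18.1, 19.1 and 17.6 in PP (-0.99 ± 0.09).

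Of the 10 members with most CPM, 7 fell, by 0.32 (Pvt1) to 3.36 (Gm26917) on the log2 scale. At an average log2 CPM of 4 and above, 53.3% of tested members and 28.9% of all genes were lower. Lncenc1 (chromosome 13, 97434970 to 97497007), described in embryonic stem cells, went from 415, 446 and 433 to 142, 148 and 155 CPM (-1.54 ± 0.06; adjusted p = 3.15e-16, edgeR). Cyrano, with its site for miR-7 printed above, had 107, 119 and 95 CPM in PA/OA and 65.1, 71.3 and 63.7 in PP (-0.68 ± 0.07; adjusted p = 3.07e-08, edgeR), and the nearby Oip5 rose by 0.90. The groups of both genes were apart. Gm32856 fell by 1.63 from a mean of 48.1 to 15.6 CPM, Gm6093 by 0.93 from 99.9 to 52.4, and Gm47015 by 0.34 from 65.6 to 51.9. Pvt1, downstream of the growth gene Myc, had 42.5, 42.6 and 43.2 CPM in PA/OA and 36.9, 33.4 and 32.2 in PP (-0.32 ± 0.08; adjusted p = 0.00071, edgeR), and Myc fell by 0.44 from 144 to 106 CPM.

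Xist, the RNA of X inactivation, was at 0.191, 0.466 and 0.5 CPM in PA/OA and 0.168, 0.145 and 0.437 in PP and did not pass (-0.60, adjusted p = 0.395, edgeR; -1.25 without PP replicate 3). Ptgs2os2, a noncoding gene 50816 bases from Ptgs2, was at 0.797, 0.599 and 0.607 and then 1.18, 0.398 and 0.800 CPM (0.23, adjusted p = 0.667, edgeR). The groups overlapped in both genes. H19, an imprinted RNA of fetal liver, had no count but in PP replicate 3 and was not tested, nor were Miat and Mir124a-1hg.

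**Figure D5:**
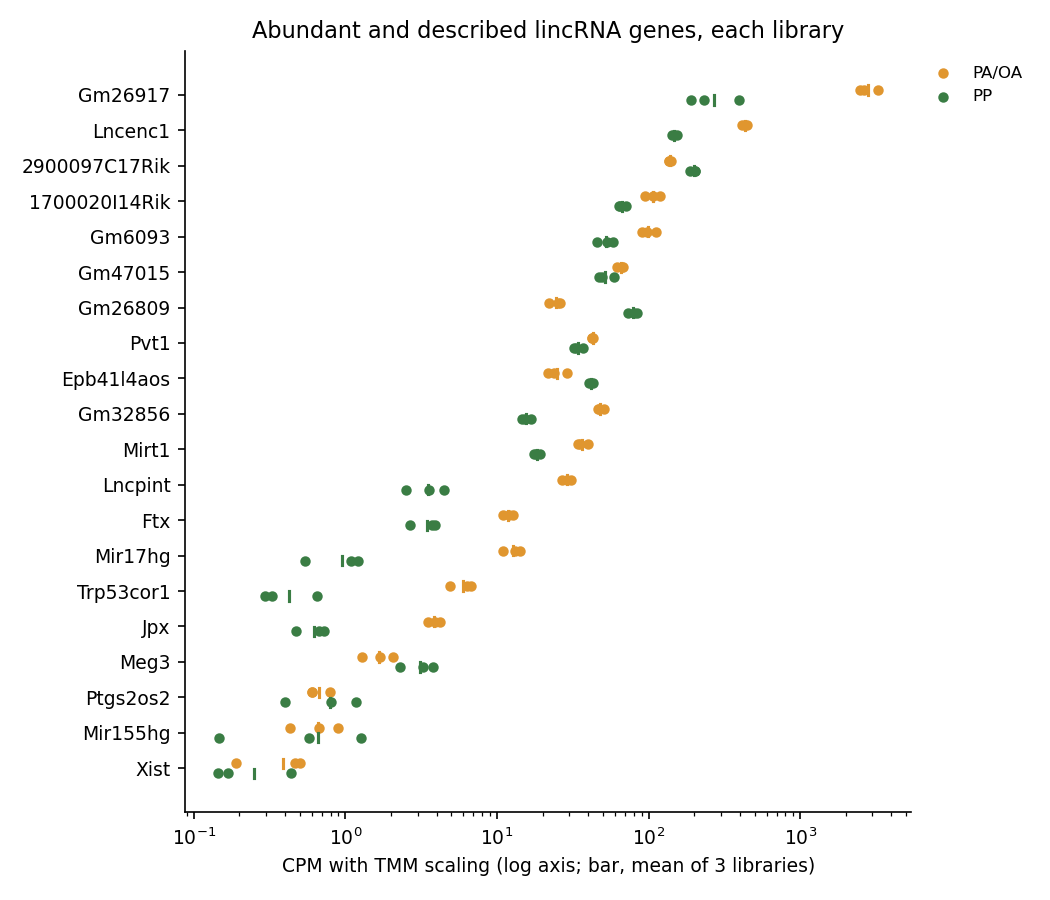
CPM in each PA/OA (orange) and PP (green) library, on a log axis, for the 10 most abundant lincRNA genes and those of described role that were tested; bars mark group means. Norad (2900097C17Rik), Gm26809, Epb41l4aos and Meg3 have green points to the right; the groups of Ptgs2os2, Mir155hg and Xist overlap.

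Promoter sequences were read from RefSeq (GRCm38.p6), from 250 bases before to 50 after the start. Of the members, 350 matched by symbol and strand, and 268 of these had a RefSeq start within 500 bases of that in the table. Searched on both strands were the letters CACGTG for the E-box, GGGCGG for the GC box, CCAAT for the CCAAT box, TATAAA for the TATA box, TGACTCA for the AP-1 site, TGACGTCA for the cyclic AMP response element (CRE), ACCGGAAG for the ETS site, TGACNNNGC for the antioxidant element, and the NRF1 site, none of which contains another, although matches of some, such as the AP-1 site and the antioxidant element, can share bases. The GC box was in 66.7% of 27 promoters of members called higher, in 34.2% of 76 called lower and in 35.6% of all 32817 promoters of the table. The CRE was in 5 of 27 (18.5%), in 3 of 76 (3.95%) and in 1.79% of all, the E-box in 18.5%, 11.8% and 7.15%, ETS in 11.1%, 5.26% and 2.3%, CCAAT in 44.4%, 31.6% and 37.4% and TATAAA in 11.1%, 21.1% and 13.6%. AP-1 was in 7.41%, 5.26% and 5.2%, the antioxidant element in 7.41%, 15.8% and 12.4%, and NRF1 in 3.7%, 3.95% and 4.59%. Median observed over expected CpG was 0.65 in members called higher, 0.62 in the 43 that did not pass and 0.38 both in those lower and in all promoters, and the GC box was in 46.5% and CCAAT in 41.9% of the 43. With 27 promoters, these shares rest on few genes.

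Risers with the CRE letters were Gm4262, 1810044D09Rik, Gm34086, Meg3 and C030037D09Rik, and members called lower with them were Gm14321, 6030443J06Rik and 1300002E11Rik. 1810044D09Rik went from 1.91, 2.20 and 1.64 to 5.13, 3.87 and 3.86 CPM (1.15 ± 0.24) and Gm14321 from 2.93, 2.36 and 1.79 to 1.05, 0.651 and 0.619 (-1.62 ± 0.34). The groups did not overlap in either, so the same letters stood near the start of a member that rose and of one that fell. Of these 5 risers, Gm4262 and 1810044D09Rik were among the 41 called under each scaling. C030037D09Rik rose by 0.26 and Gm34086, below 1 CPM in every library, by 1.31. Promoters of 2 risers and of 1 member that fell are shown as their strand reads, with all matches to the searched letters in capitals, at chr12:109540746-109541045 (plus), chr6:91440737-91441036 (plus) and chr2:167777241-167777540 (plus).
Meg3: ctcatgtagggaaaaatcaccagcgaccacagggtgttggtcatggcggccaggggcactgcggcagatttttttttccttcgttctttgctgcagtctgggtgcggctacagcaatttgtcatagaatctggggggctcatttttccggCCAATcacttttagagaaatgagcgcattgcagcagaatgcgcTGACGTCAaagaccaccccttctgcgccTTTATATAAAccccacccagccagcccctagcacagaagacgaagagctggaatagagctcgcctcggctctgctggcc
1810044D09Rik: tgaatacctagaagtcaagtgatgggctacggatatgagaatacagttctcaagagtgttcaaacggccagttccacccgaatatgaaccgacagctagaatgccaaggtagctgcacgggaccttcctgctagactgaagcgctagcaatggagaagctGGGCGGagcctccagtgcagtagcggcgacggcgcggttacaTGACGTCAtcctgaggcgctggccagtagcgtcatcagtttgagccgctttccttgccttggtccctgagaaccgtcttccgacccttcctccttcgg
Gm14321: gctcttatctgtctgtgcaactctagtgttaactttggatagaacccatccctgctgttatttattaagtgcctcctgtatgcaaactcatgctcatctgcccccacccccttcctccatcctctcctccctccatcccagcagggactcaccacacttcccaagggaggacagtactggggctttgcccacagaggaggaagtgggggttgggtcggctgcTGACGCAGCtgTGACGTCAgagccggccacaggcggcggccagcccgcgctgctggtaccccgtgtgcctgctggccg

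Genes that act on such transcripts were compared in the same fit. Of 13 tested genes of the nuclear exosome, 7 were lower and 4 higher in PP (39.9% and 35.1% of all genes), with Exosc2 down by 1.95 from 34 to 8.81 CPM and Mphosph6 up by 1.52 from 20 to 57.2. Of 12 adaptors that bring it RNA, 7 were higher, among them Zc3h3 (1.38), Papd5 (1.26) and Rbm7 (1.15), and 3 lower. Of 14 Integrator genes, whose complex ends many short noncoding transcripts, 10 were lower, with Ints1 down by 1.32, and 3 higher. Of 10 genes of nonsense-mediated decay, 8 were higher and 2 lower. Median log2 fold changes of these lists were -0.23, 0.44, -0.47 and 0.39, against -0.09 over all genes. Most of these genes are abundant, and all genes is not a like set for them. Protein-coding genes with an average log2 CPM of 4 and above had 54.8% higher and 29% lower, with a median of 0.25. The part of the listed genes in the lincRNA values was not tested.

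Other noncoding classes stood as follows. Antisense genes had 7.99% higher and 57.7% lower of 626 tested with a median of -1.40, processed transcripts 12.9% and 57.4% of 249 with -1.02, and bidirectional promoter RNAs 17% and 58.5% of 53 with -1.02. The lincRNA values were 14.6%, 56.1% and -1.12. Genes awaiting experimental proof, the class TEC, had 6.6% higher and 74.4% lower of 863 with a median of -2.21, and sense intronic genes 3.94% and 72.4% of 127 with -1.86. Processed pseudogenes, of similarly low abundance (median average log2 CPM of 0.25 against 0.47), had 29.9% higher and 21.5% lower of 1070 with a median of 0.19. No test was made between classes.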

How the data were processed

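RNA of 6 samples of AML12 cells, 3 labelled PA/OA and 3 labelled PP, was sequenced. Raw counts per gene were deposited, made with featureCounts on build mm10 per the submitters' processing notes, which also name DESeq2 1.16.1 without its role. Aligner, annotation and strand setting are not given in any source used here. Symbols, biotypes, lengths and coordinates are those of the table, and exons and overlaps come from GENCODE M21, where union exon length equalled the table's gene length for 98% of 54495 genes matched by ID. Groups came from the treatment labels.

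Analysis was in R 4.3.3 and used edgeR 4.0.16: filterByExpr, TMM, glmQLFit and the two-sided glmQLFTest, with Benjamini-Hochberg adjustment over all genes tested and a threshold of 0.05. SE is the absolute fold change over the root of F, and CPM are TMM-scaled, given with the SD over 3 libraries. The step was tested on simulated data. Even numbers made up 55.3% to 63.4% of the members' counts from 1 to 20, as when both mates of a pair are counted, so counting intervals may be too narrow. Replicates differed beyond sampling noise (on halved counts, chi-square per gene was 2.98 to 4.53) and were counted as separate.

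Named members were the 14 largest rises and 8 largest falls with groups apart and average log2 CPM of at least -1, the 10 most abundant, and a list of lincRNA genes with a described role; others were chosen after their values were seen. Members, lists and rules were chosen with earlier results of these data known. Alternatives were other scalings, filters and tools (DESeq2 1.42.0, limma-voom with limma 3.58.1), halved counts, removal of the trend with abundance (lowess, span 0.4), membership minimums of 5 and 50 counts, members overlapping no other gene, the replicate number as a block, and each library left out; leaving out Gm26917 was added after seeing the data.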

Additional observations from a re-analysis of the deposited data

How the results depend on the processing

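Of 42 named members tested, 37 kept direction and side of the threshold in every alternative that tested them, from scalings, filters and tools to each library left out. The count of members higher in PP, 66, was 41 with library size only, 118 with the trend with abundance removed and 37 among members overlapping no other gene, where fewer were tested. The count lower, 254, was 157 with the trend removed and 117 among members overlapping no other gene. The median log2 fold change of -1.12 was -1.55 with library size only, -1.35 with upper-quartile scaling, -1.36 with no filter, -1.17 with limma-voom, -0.26 with the trend removed, -1.07 at a minimum of 50 counts and -1.05 without overlapping members; with 9 members without a count in PP set at a floor of 3 counts it stayed at -1.12. Leaving out 1 library at a time gave 63 to 68 higher, 253 to 294 lower, medians from -1.29 to -1.14, and ratios of the share of library counts from 3.27 to 3.52. That ratio, 3.41, was 1.87 without Gm26917. Ptgs2os2 (0.23) was at -0.20 with library size only, -0.01 with upper-quartile scaling and from -0.13 to 0.57 over the libraries left out, and was called higher with the trend removed (1.36, adjusted p = 0.0129, edgeR). Mir155hg (-0.03) was at 0.24 without PA/OA replicate 3, 0.07 and 0.48 without PP replicates 2 and 3, -0.84 without PP replicate 1, and 1.26 with the trend removed, where Xist was at 1.24. Apart from changes in the number of genes or libraries, the cause was not tested. With the replicate number as a block, 62 members were higher, 245 were lower and the median was -1.14. Deviations of same-numbered libraries from their group means did not go together over all genes tested (correlations of 0.01, 0 and -0.04). No shared effect of the number was visible, which cannot settle whether the numbers pair the samples.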

Other observations

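Gm43913 on chromosome 6 and Gm15907 on chromosome 13 had the same counts in every library, 22, 42 and 29 in PA/OA replicates 1 to 3 and 0 in PP. They were the only 2 tested members that shared all 6 counts with another. Of the 31-base words of Gm43913, 2.4% occur in other genes, and none of those of Gm15907.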
